A study of Mus musculus with 12 samples.

Results

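The proteasome is the large protease that breaks down ubiquitin-tagged proteins in the cytoplasm and nucleus. The genes described here are those whose annotated symbol begins with Psm, a letter from a to g and a number, in array rows annotated with 1 symbol, with the brightest row kept where a gene had several. This rule found 50 genes among the 19938 measured, and it used no difference between samples. The values came from RNA of sorted mouse thymus cells on Affymetrix Mouse Gene 1.0 ST arrays, as RMA signals on the log2 scale, in 12 arrays. The 6 T cell lymphomas were blast cells sorted from the thymus of TCF-1 KO mice that had developed the disease, aged 12 to 40 weeks. The 3 KO DN3 samples were thymocytes at the DN3 stage, an early CD4- CD8- stage at which T cells rearrange their receptor beta chain, from TCF-1 KO mice aged 8 to 12 weeks. The 3 WT DN3 samples were the same stage from wild-type mice aged 8 to 12 weeks. All mice were of strain C57/BL6, cells were sorted straight into Trizol LS, and RNA was amplified with the NuGEN WT-Ovation PicoRNA system. The sources used here do not give the allele, the sort markers or any kinship among the mice, so every p-value measures the spread between these samples, and the small number of arrays limits precision. The age range of the lymphomas differs from that of both DN3 groups, and age and disease cannot be told apart.

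At the centre of the proteasome is the 20S core, a barrel of alpha rings that gate entry and beta rings that hold the active sites. The 19S cap binds ubiquitin chains, removes them and feeds the unfolded protein into the core with a ring of ATPases. In cells exposed to interferon, and constitutively in lymphoid cells, the immunoproteasome subunits Psmb8, Psmb9 and Psmb10 take the places of the constitutive active subunits Psmb5, Psmb6 and Psmb7 in newly made cores and change which peptides are offered to MHC class I. In the thymus, cortical epithelial cells carry a further active subunit, Psmb11, and in the testis Psma8 takes the place of an alpha subunit in meiotic cells.

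The 50 genes held 7 alpha ring subunits, 7 constitutive beta subunits, the 3 immunoproteasome subunits, Psmb11, Psma8, 6 ATPases and 11 other subunits of the 19S cap, 3 chaperones of the 19S base (Psmd5, Psmd9, Psmd10), 4 activator subunits (Psme1 to Psme4), the core regulator Psmf1 and 4 chaperones of core assembly (Psmg1 to Psmg4). The remaining 2, Psmc3ip and Psme3ip1, match the symbol pattern but are no proteasome subunits: Psmc3ip acts in meiotic recombination, and Psme3ip1 is a binding partner of Psme3. All 50 passed the filter on low values (a mean of at least log2 4.78, the 25th percentile). Psma8 passed it only through 2 lymphomas: its mean was 4.97 over all 12 arrays and 4.51 over the other 10.

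The labelled cell types were set against their markers. Of the T cell genes, Cd3e of the receptor complex was bright on every array, between 10.28 and 10.73 in lymphomas, 9.65 and 10.15 in KO DN3 and 9.89 and 10.26 in WT DN3 cells. The 6 measured T cell genes went both ways in lymphomas against WT DN3 cells: the kinase Zap70 was higher by 1.17 on the log2 scale and Cd3g lower by 0.35 (limma adjusted p = 0.00043 and 0.0375), and 4 were not called. The DN3 marker Il2ra was between 9.89 and 10.62 in lymphomas, 10.37 and 10.88 in KO DN3 and 10.71 and 10.77 in WT DN3 cells. The recombinase genes Rag1 and Rag2 were lower in lymphomas than in WT DN3 cells, by 1.92 and 1.39 on the log2 scale (limma adjusted p = 0.00824 and 0.0197). Of the 6 DN3 stage genes Dtx1, a target of Notch, went the other way, higher by 0.92 in lymphomas and by 0.63 in KO DN3 cells than in WT DN3 cells (limma adjusted p = 7.69e-05 and 0.0484). Unnamed rows of the table, 34 in all, separated the arrays into a smaller set (lymphomas 1 and 2, KO DN3 replicate 1 and WT DN3 replicate 1) and a larger set of 8, by medians of 6.02 to 6.35 against 8.34 to 9.04. The sources used here do not say what this split stands for, and results that move with it are given within each set.

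As a whole the proteasome genes changed little in any comparison. In KO DN3 against WT DN3 cells, limma called 0 of 50 at an adjusted p under 0.05, where 1.99% of all 14953 genes tested were called. An unadjusted p under 0.05 was found for 4 of 50 (8%), beside 16.3% of all genes. In lymphomas against WT DN3 cells it also called 0 of 50, beside 5.82% of all genes. Again 4 of 50 (8%) had an unadjusted p under 0.05, beside 15.5% of all genes. In lymphomas against KO DN3 cells it called 3 of 50, beside 6.62% of all genes. Psmb9 was lower in lymphomas, where 2.12% of all genes were called lower, and Psmc6 and Psmd4 were higher, where 4.5% were called higher. These shares lay near or below the background, so the counts are no result about the proteasome genes as a group. The comparisons share their samples, so their values stand side by side and are not independent.

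The median log2 difference over the 50 genes was 0.00 in lymphomas against WT DN3 cells, -0.07 in lymphomas against KO DN3 cells and 0.07 in KO DN3 against WT DN3 cells, beside -0.01, -0.03 and 0.03 over all genes tested. A miss of the threshold does not show equal levels, but the 95% intervals bound how large a difference these arrays allow. That interval lay within 1.5-fold either way for 44, 41 and 43 of the 50 genes in the same order of comparisons, which is 88%, 82% and 86%, beside 86.3%, 78.7% and 77.4% of all genes tested. The genes whose intervals reached past 1.5-fold included the assembly chaperones Psmg2 and Psmg4 in all 3 comparisons. The counts out of 50 include Psma8, which was in the fits although no test of it is read here. Its interval lay within 1.5-fold only in KO DN3 against WT DN3 cells, where all its values were under the filter on low values.

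**Figure D1:**
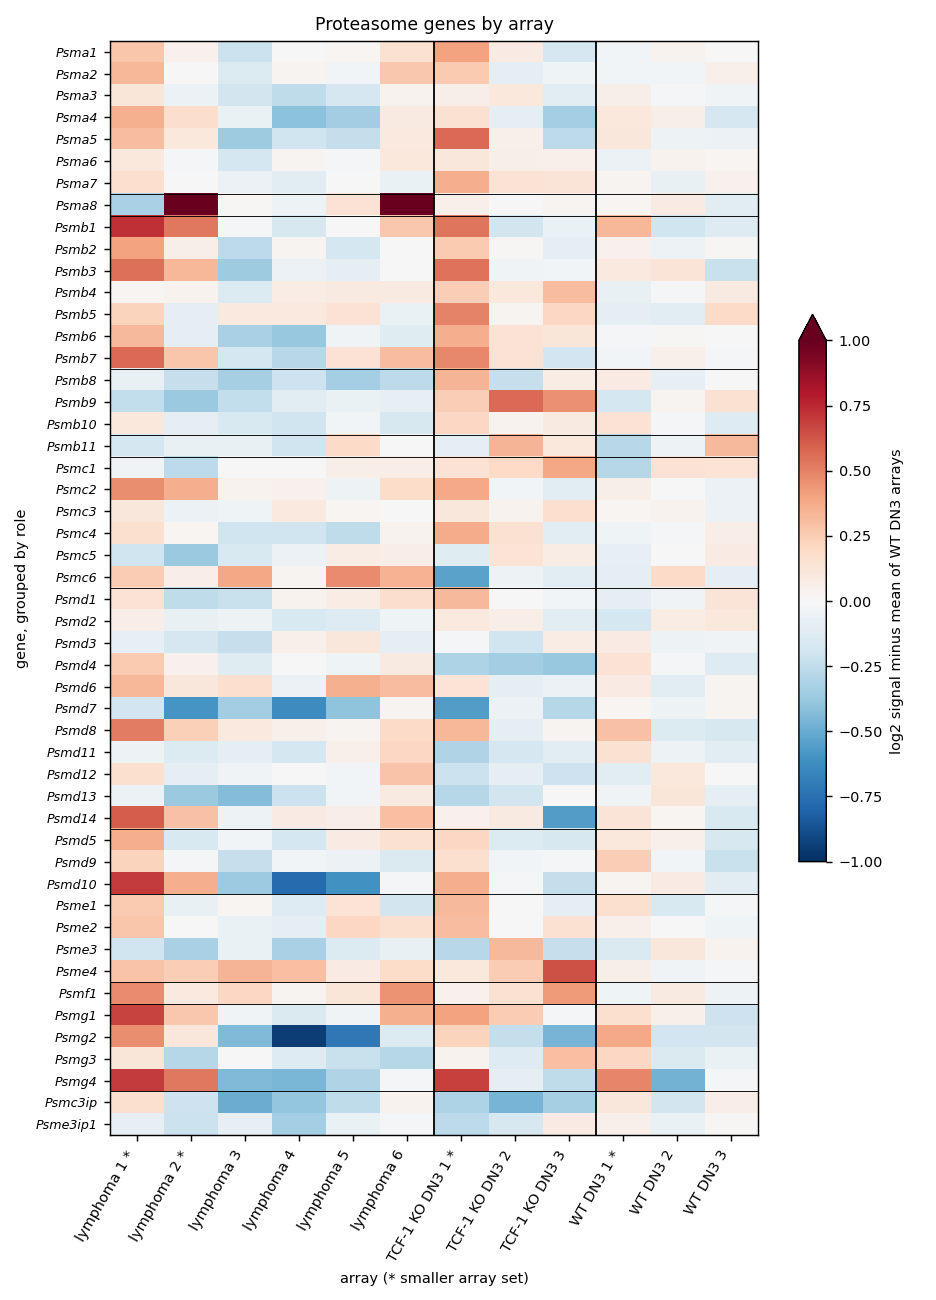
Heat map of the 50 proteasome genes (rows, grouped by role) in the 12 arrays (columns, lymphomas, then KO DN3, then WT DN3), coloured by log2 signal minus the WT DN3 mean of the gene. Asterisks mark the 4 arrays of the smaller set. Most cells are pale, lymphoma 1 and KO DN3 replicate 1 are shifted up over much of the core, and Psma8 stands out in lymphomas 2 and 6.

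**Figure D2:**
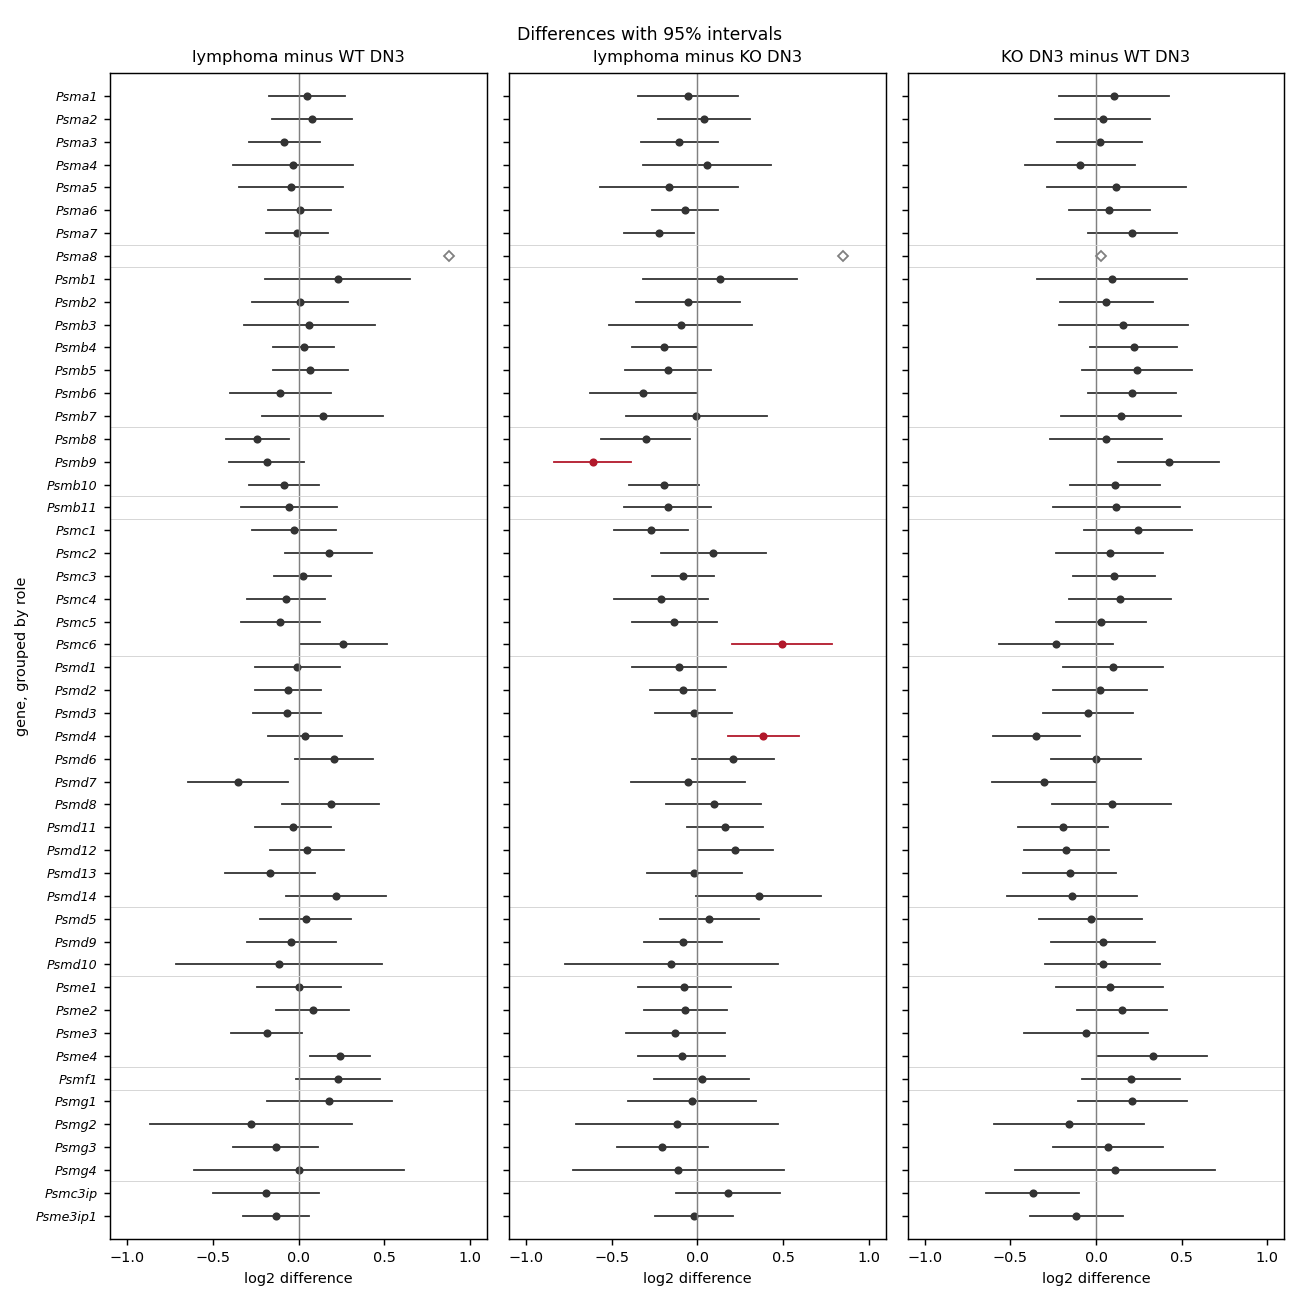
Log2 difference of each of the 50 genes in lymphomas against WT DN3, lymphomas against KO DN3 and KO DN3 against WT DN3 cells, with 95% intervals from limma. Genes called at an adjusted p under 0.05 are red, and Psma8 is shown as a grey open diamond with no interval. Only Psmb9, Psmc6 and Psmd4 are red, all in lymphomas against KO DN3 cells.

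Among the catalytic subunits the clearest difference was that of Psmb9, also called LMP2, the immunoproteasome counterpart of Psmb6. Psmb9 stood at log2 9.44, 9.32, 9.44, 9.58, 9.62 and 9.61 in lymphomas 1 to 6, at 9.94, 10.26 and 10.14 in KO DN3 replicates 1 to 3, and at 9.51, 9.72 and 9.84 in WT DN3 replicates 1 to 3. Every lymphoma lay below every KO DN3 sample, and every KO DN3 sample lay above every WT DN3 sample, while lymphomas and WT DN3 samples overlapped. The means were 9.50 ± 0.12 in lymphomas (SD, n = 6), 10.11 ± 0.16 in KO DN3 and 9.69 ± 0.17 in WT DN3 cells (SD, n = 3 each). In lymphomas Psmb9 was 1.53-fold lower than in KO DN3 cells, a log2 difference of -0.61 (SE 0.10, limma adjusted p = 0.0048). This call was kept in all 20 fits tried, with adjusted p between 0.00097 and 0.0286, and the difference was -0.64 within the larger array set and -0.56 within the smaller. Lymphomas against WT DN3 cells differed by -0.19 (limma adjusted p = 0.43), which missed the threshold.

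For KO DN3 against WT DN3 cells the log2 difference of Psmb9 was 0.42 (SE 0.13), with a limma adjusted p of 0.15. Same-numbered KO and WT arrays deviated together from their group means (r = 0.51, 0.42 and 0.25), so a block by replicate number was tried. The labels state no pairing. WT DN3 replicate 1 correlated at 0.45 with lymphoma 2, which has another number but is in the same array set. WT DN3 replicate 3 correlated at 0.26 with lymphoma 4. The block thus rests on a pairing that these values do not settle. With the replicate block the adjusted p was 0.0260, and with the array set as a term it was 0.0424, the 1 call of 50 in that fit, beside 5.04% of all genes. With the block limma called 2 of 50 genes, Psmb9 as higher and Psmc3ip as lower in KO DN3 cells, beside 9.23% of all genes called by that fit. The difference was the same in size within both array sets, at 0.42 in the larger and 0.43 in the smaller.

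The promoter of Psmb9 is shown because the gene shares it with Tap1, which encodes a subunit of the peptide transporter that loads MHC class I. The 2 genes start 225 bases apart and run in opposite directions. The whole stretch between their starts follows as RefSeq gives it on GRCm38.p6 (chr17:34187331-34187555, minus strand, 5′ to 3′ towards Psmb9), with the 1 match to CCAAT, read on the opposite strand, in capitals.
Psmb9: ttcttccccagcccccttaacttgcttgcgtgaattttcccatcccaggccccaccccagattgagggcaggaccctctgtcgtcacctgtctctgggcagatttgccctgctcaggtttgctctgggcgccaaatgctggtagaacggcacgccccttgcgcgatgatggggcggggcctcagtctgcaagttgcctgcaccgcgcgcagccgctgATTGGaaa
CCAAT, in either direction, is found in 37.4% of 32851 promoters, so its presence is not particular. That share was counted over 250 bases before the start and 50 after it, a longer window than the stretch shown. No match was found here to GAAA, any 2 bases and GAAA, the short form of the element read by interferon regulatory factors, which says only that these letters are not in this window. Tap1 had the same order of group means as Psmb9, with smaller differences: it stood at 5.77 to 6.17 in lymphomas, 5.94 to 6.28 in KO DN3 and 5.90 to 6.10 in WT DN3 cells, with overlapping ranges. Tap1 differed by -0.17 in lymphomas against KO DN3 cells and by 0.09 in KO DN3 against WT DN3 cells, which missed the threshold (limma adjusted p = 0.372 and 0.752), with the same signs within both array sets. The log2 signal of Psmb9 less that of Tap1 was 3.34 to 3.78 in lymphomas, 3.88 to 4.20 in KO DN3 and 3.51 to 3.82 in WT DN3 cells. On this within-array difference the KO DN3 samples lay above all others. This difference depends on the binding of both probe sets, so its size is read only between groups and was not tested.

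Psmb8, or LMP7, the immunoproteasome counterpart of Psmb5, stood at 9.04, 8.88, 8.78, 8.91, 8.77 and 8.85 in lymphomas 1 to 6. It stood at 9.45, 8.88 and 9.18 in KO DN3 and at 9.20, 9.03 and 9.11 in WT DN3 cells. All lymphomas except the first were below every WT DN3 sample, and KO DN3 replicate 2 lay among the lymphomas. The differences of -0.24 against WT DN3 and -0.30 against KO DN3 cells missed the threshold (limma adjusted p = 0.154 and 0.147). Psmb10, the counterpart of Psmb7, was between 6.92 and 7.22 in lymphomas, 7.15 and 7.32 in KO DN3 and 6.98 and 7.26 in WT DN3 cells. Its difference of -0.20 in lymphomas against KO DN3 cells also missed it (limma adjusted p = 0.218). All 3 immunoproteasome subunits had the same order of group means, lowest in lymphomas and highest in KO DN3 cells. This order was not particular to them: 16 of the 50 genes had it (32%), beside 23.6% of all genes tested, among them Psmb6, Psmb11, Psma3, Psma5, Psma7, Psmc1, Psmc4 and Psmc5. Psmb9 was called in lymphomas against KO DN3 cells in all 20 fits, and in KO DN3 against WT DN3 cells with the replicate block and with the array set as a term.

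Of the constitutive active subunits, Psmb6 had the order of group means seen in the immunoproteasome. Psmb5 was 8.97 to 9.29 in lymphomas, 9.09 to 9.55 in KO DN3 and 8.96 to 9.25 in WT DN3 cells. Psmb6 was 9.04 to 9.75 in lymphomas, 9.54 to 9.79 in KO DN3 and 9.41 to 9.44 in WT DN3 cells. Its difference of -0.32 in lymphomas against KO DN3 cells was no smaller than that of Psmb8 and missed the threshold (limma adjusted p = 0.195). Psmb7 was 8.84 to 9.69 in lymphomas, 8.93 to 9.60 in KO DN3 and 9.09 to 9.17 in WT DN3 cells. The groups overlapped for each of them, except that every KO DN3 sample had more Psmb6 than every WT DN3 sample, and none passed the test in any comparison. Psmb9 less Psmb6 ran between -0.31 and 0.54 among lymphomas, 0.15 and 0.68 in KO DN3 and 0.10 and 0.42 in WT DN3 cells. Lymphoma 1 was the lowest and lymphoma 4 the highest of the tumours, and the groups overlapped. Psmb8 less Psmb5 ran between -0.44 and -0.09 in lymphomas, -0.20 and -0.08 in KO DN3 and -0.14 and 0.23 in WT DN3 cells. Psmb10 less Psmb7 ran between -2.47 and -1.93 in lymphomas, -2.28 and -1.73 in KO DN3 and -2.12 and -1.83 in WT DN3 cells. No such difference between subunits separated KO DN3 cells from both other groups, while the level of Psmb9 did.

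**Figure D3:**
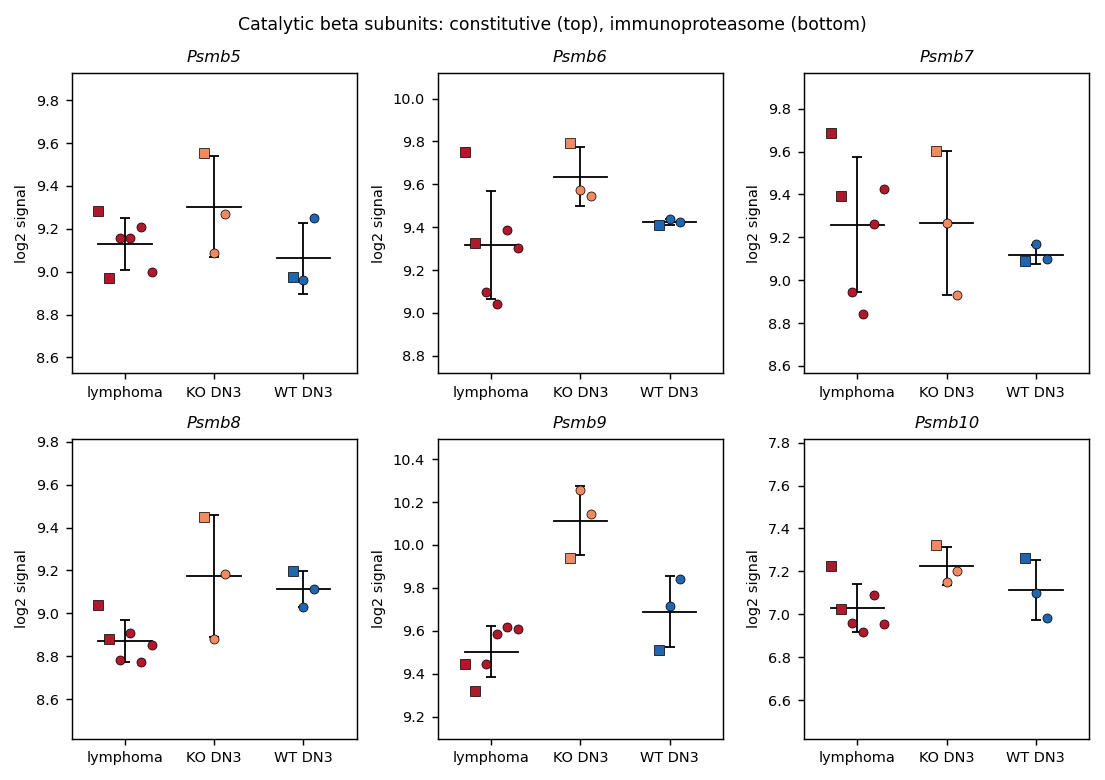
Log2 signal of Psmb5, Psmb6 and Psmb7 and of their immunoproteasome counterparts Psmb8, Psmb9 and Psmb10 in lymphomas, KO DN3 and WT DN3 cells, 1 point per array. Squares are arrays of the smaller set, circles those of the larger set, bars are means and whiskers 1 SD. Psmb9 lies between 9.32 and 9.62 in the 6 lymphomas and between 9.94 and 10.26 in the 3 KO DN3 samples.

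Other genes that accompany the immunoproteasome were read beside it. Of 9 measured genes of MHC class I presentation none was called in any comparison, and the median difference was -0.17 in lymphomas against KO DN3 cells and 0.04 in KO DN3 against WT DN3 cells. Tap2 was 6.17 to 6.54 in lymphomas, 6.55 to 6.75 in KO DN3 and 6.53 to 6.60 in WT DN3 cells, and its difference of -0.26 in lymphomas against KO DN3 cells missed the threshold (limma adjusted p = 0.123). Of 12 tested interferon response genes, 11 were below 0 in lymphomas against KO DN3 cells and 9 were above 0 in KO DN3 against WT DN3 cells, beside 56.5% and 55.3% of all genes tested, with medians of -0.26 and 0.12. Only Ifit1, which blocks translation of viral RNA, was called: it was lower in lymphomas than in KO DN3 cells by 0.44 on the log2 scale (limma adjusted p = 0.0154), with 5.43 to 5.60 in lymphomas, 5.79 to 6.07 in KO DN3 and 5.36 to 5.56 in WT DN3 cells. Irf1, an activator of immunoproteasome genes, differed by 0.02 in lymphomas against KO DN3 cells and by -0.05 in KO DN3 against WT DN3 cells, with overlapping ranges.

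Markers of cortical thymic epithelium mostly had the sign of Psmb9 in lymphomas against KO DN3 cells. They all had it in KO DN3 against WT DN3 cells. Of 10 measured, 4 were called lower in lymphomas than in KO DN3 cells (Epcam, Foxn1, Prss16 and Ly75), beside 2.12% of all genes. In that comparison 9 lay below 0, beside 56.5% of all genes tested. In KO DN3 against WT DN3 cells all 10 lay above 0, beside 55.3% of all genes, and none was called. Against WT DN3 cells the lymphomas were mixed, with 6 markers below 0 and 4 above and a median of -0.02, beside 51.7% of all genes below 0. There 1 marker was called lower (limma adjusted p = 0.000522). The lowest marker difference was -1.05 against WT DN3 and -1.06 against KO DN3 cells on the log2 scale. In KO DN3 against WT DN3 cells the marker differences ran from 0.01 to 0.45. The log2 of their summed signal was 8.86 to 9.11 in lymphomas, 9.14 to 9.40 in KO DN3 and 8.99 to 9.19 in WT DN3 cells. Foxn1, the defining transcription factor of that epithelium, was dim, at 5.07 to 5.24 in lymphomas, 5.34 to 5.63 in KO DN3 and 5.08 to 5.34 in WT DN3 cells. Psmb11, the subunit found in that epithelium, was near the filter of 4.78 in all groups, at 4.62 to 5.01 in lymphomas, 4.73 to 5.16 in KO DN3 and 4.54 to 5.14 in WT DN3 cells, and was not called in any comparison. For 13 markers of myeloid and dendritic cells the log2 of the summed signal was 8.678 to 8.998 in lymphomas, 8.681 to 8.843 in KO DN3 and 8.661 to 8.735 in WT DN3 cells. Of the 10 tested, 9 lay above 0 in lymphomas against WT DN3 cells, beside 48.3% of all genes. Against KO DN3 cells 7 did, beside 43.5%. H2-Ab1 was called higher in lymphomas than in KO DN3 cells, by 0.72 on the log2 scale. H2-Aa was called higher in lymphomas than in WT DN3 cells, by 0.47 (limma adjusted p = 0.0261 and 0.0385). Both encode chains of MHC class II. For 6 B cell markers the log2 of the summed signal was 7.30 to 7.43 in lymphomas, 7.65 to 7.82 in KO DN3 and 7.62 to 7.68 in WT DN3 cells. On this sum, in which bright genes weigh most, the lymphomas lay below both other groups, which overlapped. The median difference of the 6 from the WT DN3 mean overlapped between all groups. It was -0.09 to 0.06 in lymphomas, -0.06 to 0.19 in KO DN3 and -0.02 to 0.02 in WT DN3 cells. Of the 3 tested, Cd79b of the B cell receptor was called lower in lymphomas, by 0.82 against KO DN3 and 0.95 against WT DN3 cells on the log2 scale (limma adjusted p = 0.00186 and 0.000216), and the other B cell markers Cd79a, Ms4a1 and Ebf1 were too dim to be tested. The part of other cells in the difference of Psmb9 was not tested. In such bulk samples fewer cells of a type and less RNA per cell cannot be told apart.

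In the 19S cap, the 2 called genes were higher in lymphomas than in KO DN3 cells. Psmc6, an ATPase of the unfolding ring, was lowest at 8.69 in lymphoma 4 and highest at 9.13 in lymphoma 5, with a median of 8.96 over the 6 lymphomas, and stood at 8.12, 8.60 and 8.54 in KO DN3 and at 8.57, 8.84 and 8.56 in WT DN3 cells. Every lymphoma lay above every KO DN3 sample, and WT DN3 samples overlapped both. Psmc6 was 1.41-fold higher in lymphomas, a log2 difference of 0.49 (SE 0.13, limma adjusted p = 0.0476), and the difference was 0.39 within the larger array set and 0.70 within the smaller. This call was close to the threshold: it held in 8 of 20 fits, with adjusted p between 0.0174 and 0.187. It was lost without KO DN3 replicate 1 or 3 and without any of the lymphomas 1, 2, 3, 5 and 6, with log2 differences between 0.34 and 0.55.

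Psmd4, a receptor for ubiquitin chains on the cap, stood at 7.98, 7.76, 7.59, 7.71, 7.67 and 7.80 in lymphomas 1 to 6, at 7.40, 7.36 and 7.33 in KO DN3 and at 7.86, 7.70 and 7.59 in WT DN3 cells. The KO DN3 samples lay below all 9 other samples, and lymphomas and WT DN3 samples overlapped. Psmd4 was 1.31-fold higher in lymphomas than in KO DN3 cells, a log2 difference of 0.39 (SE 0.10, limma adjusted p = 0.0322), and the difference was 0.35 within the larger array set and 0.47 within the smaller. The call held in 11 of 20 fits, with adjusted p between 0.0162 and 0.145, and was lost without any of the 3 KO DN3 replicates and without lymphoma 2 or 6, with log2 differences between 0.37 and 0.40. In KO DN3 against WT DN3 cells Psmd4 differed by -0.35 (limma adjusted p = 0.175), which missed the threshold.

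The promoters of these called 19S genes are shown because both hold CCGGAAG, a site of the ETS family of factors. Both are the 250 bases before the start in RefSeq on GRCm38.p6, for Psmc6 chr14:45329574-45329823 on the plus strand and for Psmd4 chr3:95042615-95042864 on the minus strand. In Psmc6 the capitals mark, in order, TGACNNNGC on the opposite strand, the core of the element read by Nfe2l1 and Nfe2l2, and CCGGAAG. In Psmd4 they mark CCGGAAG, then CCAAT and the GAAA repeat with 2 free bases, both on the opposite strand.
Psmc6: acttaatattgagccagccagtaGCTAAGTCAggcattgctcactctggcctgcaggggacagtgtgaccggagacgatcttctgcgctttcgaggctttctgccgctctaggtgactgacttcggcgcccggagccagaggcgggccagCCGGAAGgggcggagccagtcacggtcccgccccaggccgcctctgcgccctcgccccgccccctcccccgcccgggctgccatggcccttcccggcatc
Psmd4: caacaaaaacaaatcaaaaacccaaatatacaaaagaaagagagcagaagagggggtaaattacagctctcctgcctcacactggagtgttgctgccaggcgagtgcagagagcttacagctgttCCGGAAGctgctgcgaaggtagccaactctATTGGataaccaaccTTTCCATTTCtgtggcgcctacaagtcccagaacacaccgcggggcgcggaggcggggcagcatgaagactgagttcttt
CCGGAAG was found in 11 of 27 promoters of the core and cap subunits (40.7%, the 27 being those of 25 genes), beside 8.86% of all 32851 promoters. The holders, Psma6, Psmc1, Psmc2, Psmc6, Psmd2, Psmd4, Psmd6, Psmd11, Psmd12 and Psmd13, include genes called in no comparison. TGACNNNGC was in 14.8% of the same promoters and in 12.4% of all, and CCAAT in 37% and 37.4%. Promoters were available for 42 of the 50 genes, both strands were searched, and no share was tested. The shares were counted over 250 bases before the start and 50 after it, a longer window than the stretches printed.

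**Figure D4:**
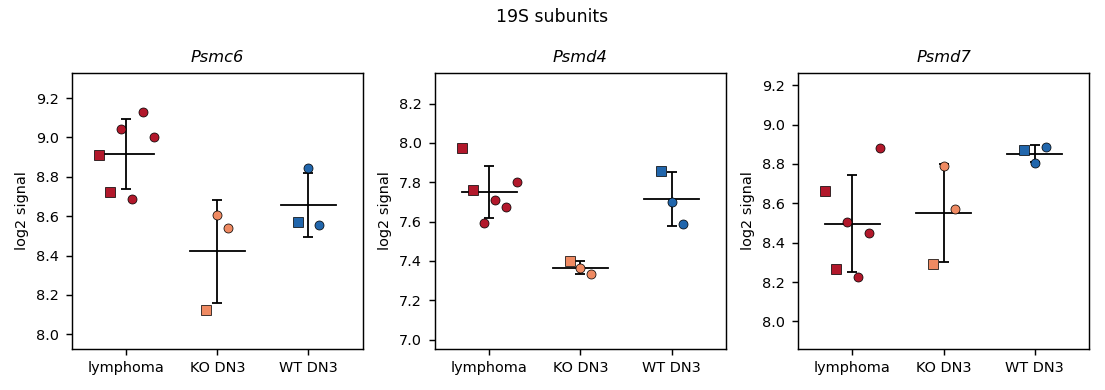
Log2 signal of the 19S subunits Psmc6, Psmd4 and Psmd7 in lymphomas, KO DN3 and WT DN3 cells, 1 point per array, drawn as for the catalytic subunits. The 6 lymphomas lie above the 3 KO DN3 samples for Psmc6 and Psmd4, and the 3 WT DN3 samples are close together at 8.80 to 8.88 for Psmd7.

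Psmd7, Psme4 and Psmc3ip are named because their arrays did not overlap or a left-out array changed their call, and were chosen after their values were seen. Psmd7, the partner of the deubiquitinase Psmd14 in the cap, was 8.23 to 8.88 in lymphomas, 8.29 to 8.79 in KO DN3 and 8.80 to 8.88 in WT DN3 cells. Its difference of -0.36 in lymphomas against WT DN3 cells missed the threshold (limma adjusted p = 0.192) and was called only without lymphoma 6. Psme4, the activator PA200 of histone degradation, was 7.79 to 8.05 in lymphomas, 7.81 to 8.34 in KO DN3 and 7.67 to 7.77 in WT DN3 cells. It was the 1 gene of 50 whose lymphomas did not overlap WT DN3 cells, beside 10.3% of all genes, and its difference of 0.24 missed the threshold (limma adjusted p = 0.138). Psmc3ip was 6.68 to 7.34 in lymphomas, 6.71 to 6.86 in KO DN3 and 6.99 to 7.28 in WT DN3 cells, with -0.37 in KO DN3 against WT DN3 cells (limma adjusted p = 0.172 without the block). In lymphomas against KO DN3 cells 5 of 50 genes did not overlap, beside 13.6% of all genes, with Psmb4 and Psmc1 lower besides the called ones. In KO DN3 against WT DN3 cells 10 did not overlap, beside 22% of all genes.

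The activator PA28, a ring of Psme1 and Psme2 that interferon also raises, did not differ by test. Psme1 was 9.89 to 10.33 in lymphomas, 9.99 to 10.40 in KO DN3 and 9.93 to 10.23 in WT DN3 cells. Psme2 was 7.65 to 8.02 in lymphomas, 7.74 to 8.05 in KO DN3 and 7.69 to 7.79 in WT DN3 cells. In lymphomas against KO DN3 cells their log2 differences were -0.08 (95% interval -0.35 to 0.19) and -0.07 (-0.31 to 0.17), so a fall the size of that in Psmb9 lay outside both intervals.

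The other subunits are given by class, as log2 differences. The alpha ring ran between -0.08 and 0.08 in lymphomas against WT DN3 cells, -0.22 and 0.06 in lymphomas against KO DN3 cells and -0.09 and 0.21 in KO DN3 against WT DN3 cells. The constitutive beta subunits ran between -0.11 and 0.23 in lymphomas against WT DN3 cells, -0.32 and 0.13 in lymphomas against KO DN3 cells and 0.06 and 0.24 in KO DN3 against WT DN3 cells. Among the 19S ATPases other than Psmc6 the sign was mixed in every comparison but KO DN3 against WT DN3 cells, where all 5 lay above 0, beside 55.3% of all genes tested. Of the 11 other cap subunits, 8 lay below 0 in KO DN3 against WT DN3 cells, beside 44.7% of all genes, and 6 lay above 0 in lymphomas against KO DN3 cells, beside 43.5%. Psmf1, which binds the core and modulates it, was 5.91 to 6.36 in lymphomas, 5.92 to 6.31 in KO DN3 and 5.84 to 5.97 in WT DN3 cells. Psme3, the nuclear activator PA28 gamma, was 8.15 to 8.41 in lymphomas, 8.20 to 8.80 in KO DN3 and 8.33 to 8.58 in WT DN3 cells. Neither passed the test in any comparison.

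Within the lymphomas the core and cap subunits shifted together. Over the 31 constitutive subunits of the core and the cap, the median difference from the WT DN3 mean was 0.22, 0.01, -0.14, -0.01, 0.00 and 0.09 in lymphomas 1 to 6, and 0.15, 0.01 and -0.06 in KO DN3 replicates 1 to 3. Lymphoma 1 was the highest tumour for 20 of the 31, beside 20.6% of all genes, and was the lowest for none. Lymphomas 3 and 4 were each the lowest for 11, beside 2347 and 3139 of all 14953 genes tested. Core and cap did not always go alike. Their medians were 0.04 and -0.08 in lymphoma 2, and -0.08 and 0.005 in lymphoma 4. KO DN3 replicate 1 was likewise the highest of its group for 19 of 31, beside 37.1% of all genes. The median SD between arrays was 0.17 in lymphomas, 0.18 in KO DN3 and 0.10 in WT DN3 cells, beside 0.15, 0.16 and 0.13 for all genes.

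The shift between arrays went partly with the array sets, and more in the core than in the cap. For the 14 core subunits the smaller set exceeded the larger by a median of 0.25 in lymphomas (12 of 14 above 0), 0.35 in KO DN3 (14 of 14) and 0.01 in WT DN3 cells (7 of 14). For the 17 cap subunits the median was -0.03 in lymphomas, 0.05 in KO DN3 and 0.03 in WT DN3 cells, and for all genes it was 0.01, 0.00 and 0.01 in the same groups. For the 4 core assembly chaperones it was 0.64 in lymphomas, 0.43 in KO DN3 and 0.44 in WT DN3 cells. Psmg4 was at 7.78 and 7.60 in lymphomas 1 and 2 against 6.62 to 7.06 in lymphomas 3 to 6, with a gap in the same direction in KO DN3 (7.76 against 6.98 and 6.83) and WT DN3 cells (7.56 against 6.60 and 7.07). The chaperone of the 19S base Psmd10 ranged over 1.47 log2 units among lymphomas, and Psmg2 over 1.41. The part of the array set in these shifts was not tested.

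The same split bears on the core in KO DN3 cells. In KO DN3 against WT DN3 cells 13 of the 14 core subunits lay above 0, beside 55.3% of all genes tested, with a median of 0.11, all 7 constitutive beta subunits among them, and none was called. Within the smaller set, 1 array against 1, the median was 0.33 and all 14 lay above 0, beside 53.4% of all genes. Within the larger set, 2 arrays against 2, it was 0.02, with 8 of 14 above 0, beside 52.9% of all genes. Of the 17 cap subunits 8 lay above 0, with a median of 0.00. In lymphomas against WT DN3 cells the core median was 0.15 within the smaller set (13 of 14 above 0, beside 48.0% of all genes) and -0.04 within the larger (3 of 14 above 0, beside 48.6%), so the direction of that small shift was not the same in both sets.

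Across the 12 arrays, deviations of the core subunits from their group means correlated with a mean pairwise r of 0.59, beside 0.19 among the cap subunits and 0.00 among all genes tested. With array set means also removed, over the 10 arrays that then still vary, r was 0.43 in both core and cap, and 0.44 over the 31. These are descriptions across arrays that share amplification, scaling and the split above, and carry no test. Rows of the same gene did not always move together: for Psmc1, the second row went the other way in lymphomas against KO DN3 cells (0.26 against -0.27 in the row used), and for Psmb3 the second row differed by 0.48 in KO DN3 against WT DN3 cells, against 0.16 in the row used.

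Psma8 was unlike all other proteasome genes. It encodes the alpha subunit of the testis proteasome, a paralogue of Psma7 that is normally found in spermatocytes and is needed for male meiosis. Its log2 signal was 4.20, 7.46, 4.54, 4.48, 4.66 and 7.06 in lymphomas 1 to 6, 4.58, 4.52 and 4.55 in KO DN3 and 4.55, 4.61 and 4.42 in WT DN3 cells. Lymphomas 2 and 6 thus stood out, and the other 4 lymphomas lay with the DN3 samples. The lower of the high tumours was 2.39 log2 units above the highest of the other 10 arrays. Psma8 was the only gene of 19938 with both tumours at least 1 unit above all 10. With no minimum gap the count was 129 genes. Both counts were made after its values were seen, with the tumours chosen from Psma8 itself. Since it was named for this pattern, no test is given against lymphomas. All DN3 samples lay below the filter of 4.78, so no test is given between them either. Lymphoma 2 is in the smaller array set and lymphoma 6 in the larger.

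Neither germ cell genes nor neighbouring genes shared this pattern. Of the 25 measured germ cell and meiosis genes none had both tumours above all other arrays. Tex14, which holds germ cells in intercellular bridges, was at 7.56 in lymphoma 2, against 4.74 to 5.10 on the other 11 arrays, so it was high in lymphoma 2 only. Syce2 of the synaptonemal complex and Stag3 of meiotic cohesin were called lower in lymphomas than in WT DN3 cells, by 0.59 and 0.45 on the log2 scale (limma adjusted p = 0.0421 and 0.0198). The 3 measured genes on either side of Psma8 in RefSeq's gene order are Hrh4, Zfp521 and Ss18 before it and Taf4b, Kctd1 and Aqp4 after it. In lymphomas 2 and 6 all of them stood within the range of the other arrays. Ss18 was 8.04 and 7.93 in these tumours, in a range of 7.64 to 8.22 in all lymphomas, 7.84 to 8.19 in KO DN3 and 7.77 to 8.23 in WT DN3 cells. Taf4b was 5.81 and 5.77, in a range of 5.39 to 5.97 in all lymphomas, 5.40 to 5.53 in KO DN3 and 5.41 to 5.64 in WT DN3 cells. Psma7, the subunit that Psma8 resembles, was 10.49 and 10.43 in these tumours, within 10.39 to 10.66 in all lymphomas.

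**Figure D5:**
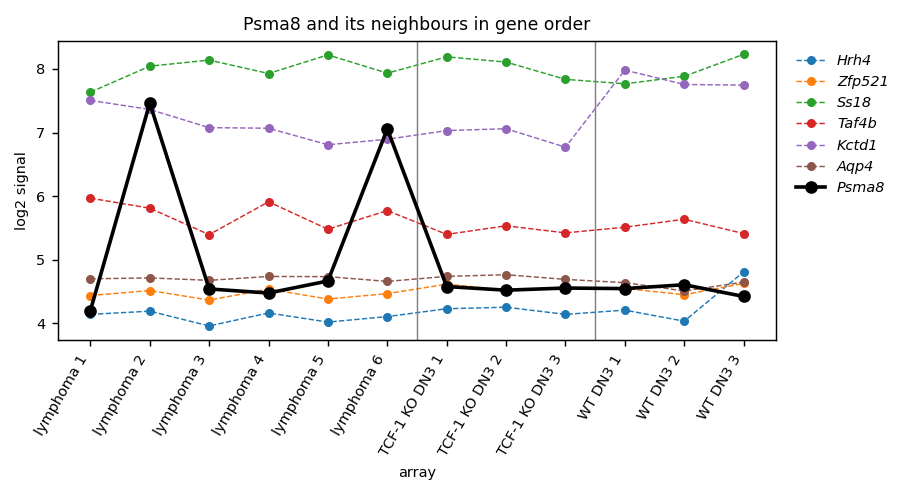
Log2 signal of Psma8 and of its chromosomal neighbours Hrh4, Zfp521, Ss18, Taf4b, Kctd1 and Aqp4 across the 12 arrays (lymphomas, then KO DN3, then WT DN3). Psma8 reaches 7.46 and 7.06 in lymphomas 2 and 6 and lies between 4.20 and 4.66 elsewhere, and no neighbour shows these peaks.

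Genes that act with the proteasome were read from a list of 8 measured associates. Usp14, a deubiquitinase that sits on the cap, was at 8.31, 7.75, 7.86, 7.28, 7.68 and 8.07 in lymphomas 1 to 6, at 6.93, 7.43 and 6.98 in KO DN3 and at 7.64, 7.72 and 7.58 in WT DN3 cells. Lymphoma 4 lay below the highest KO DN3 sample. It was called higher in lymphomas than in KO DN3 cells, by 0.71 on the log2 scale (limma adjusted p = 0.0495), a call at the threshold, and was the only associate called in any comparison. Every KO DN3 sample lay below every WT DN3 sample, with a difference of -0.53 that missed the threshold (limma adjusted p = 0.0997), and lymphomas differed from WT DN3 cells by 0.18 (limma adjusted p = 0.785). Pomp, the chaperone that finishes core assembly, was 9.83 to 10.36 in lymphomas, 10.09 to 10.63 in KO DN3 and 9.85 to 10.21 in WT DN3 cells, and was not called. Adrm1 was not analysed here. Of 10 measured genes of the transcription factors that set proteasome levels, and of their processing, none was called. Nfe2l1, the factor that raises proteasome genes when the protease is short, was 6.82 to 7.10 in lymphomas, 6.48 to 6.79 in KO DN3 and 6.70 to 6.93 in WT DN3 cells. Every lymphoma lay above every KO DN3 sample, and the difference of 0.31 missed the threshold (limma adjusted p = 0.0956). Its relative Nfe2l2 differed by 0.40 with overlapping ranges (limma adjusted p = 0.218).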

How the data were processed

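Signals of 12 arrays, 1 value per transcript cluster, were used on the log2 scale as the authors deposited them. The submitters' processing notes name RMA and Partek. Versions, settings and the log base are not stated there, and base 2 was taken from the range of the values. RMA brings all arrays to 1 distribution (array medians 5.30 to 5.39), so differences are relative to the other genes. Rows were named through the platform annotation: of 35556, 21789 had 1 symbol, 1621 several and 12146 none. The brightest row stood for a gene, and 4985 genes with a mean under the 25th percentile were left out. Each comparison was fitted on its 2 groups with limma 3.58.1 in R 4.3.3 (lmFit, eBayes, two-sided, Benjamini-Hochberg over 14953 genes), called at an adjusted p under 0.05. The code was tested on simulated data.

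Values were described for members called in any comparison, Psmb5 to Psmb11, Psma8, Psme1, Psme2, up to 4 called genes per other list, 8 fixed genes and the 3 measured genes either side of Psma8. Members and lists were chosen with earlier results of these data known. Deviations of same-numbered KO and WT arrays correlated at 0.51, 0.42 and 0.25, so a block by the titles' replicate numbers was tried. The labels state no pairing, and some arrays of different numbers correlated as much. Alternatives changed the filter, row choice, scaling, prior, samples fitted, array set and replicate block, and left out each array. The gene deleted in the KO mice was not analysed here.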

Additional observations from a re-analysis of the deposited data

Results flagged for a closer look

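In the 50 proteasome genes, the highest and the lowest of the 6 lymphomas were compared with the other 5 by Dixon's ratio at its 95% critical value. A tumour stood far from the others for 2 genes, and chance flags about 1 gene in 20, so 2 of 50 is no more than chance gives. Psmb4, a constitutive beta subunit, was at log2 10.41 in lymphoma 3, against 10.56 to 10.64 in the other lymphomas. Psmc1, an ATPase of the cap, was at 9.35 in lymphoma 2, against 9.58 to 9.68 in the others.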

How the results depend on the processing

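In KO DN3 against WT DN3 cells 0 of 50 proteasome genes were called. The replicate block gave 2, Psmb9 and Psmc3ip, the latter no proteasome subunit. The array set as a term gave 1 (Psmb9), and leaving out each replicate gave 0 to 0. In lymphomas against WT DN3 cells the count of 0 became 1 (Psmd7) without lymphoma replicate 6, and leaving out each replicate gave 0 to 1. In lymphomas against KO DN3 cells the count of 3 became 1 with a trended robust prior, with the replicate block and in the larger array set only, and leaving out each replicate gave 1 to 3. Psmb9 was the gene called each time. The labels state no pairing of lymphomas with DN3 samples. For arrays of the same number, lymphomas correlated with WT DN3 samples at r = 0.44, -0.22 and 0.15 for numbers 1, 2 and 3. With KO DN3 samples r was 0.38, -0.26 and 0.11. Number 1 joins arrays of the same array set and number 2 arrays of different sets, so these values cannot tell a pairing from the split. The cause of each change was not tested, beyond the smaller number of arrays where some were left out. Over 52 single-gene results and their 930 alternatives, 904 kept their side of the threshold and 21 (Psmc6 and Psmd4) lost the call. Another 5 gained one (Psmb9 in KO against WT DN3 cells in 2 fits, Psmb8, Psmb10 and Nfe2l1 in lymphomas against KO DN3 cells). The differences of the 3 called genes kept their sign in every fit of lymphomas against KO DN3 cells. Some uncalled differences changed sign between fits, such as Psmb7 in KO against WT DN3 cells (-0.04 to 0.31). The array background limits dim genes such as Psmb11 and Psma8 in DN3 cells.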
